A study of Mus musculus with 12 samples.

Results

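A set of 10 named genes whose products drive or restrain the growth of blood vessels was followed in sorted macrophages (MΦs) and myeloma-associated macrophages (MM-MΦs) with and without BMI1. They were chosen by symbol, with no measured value in the rule but with earlier results of these data known. These genes are 10 of the 55573 genes in the count table. They comprise the ligands Vegfa, Vegfb, Pgf, Pdgfb and Fgf2, the secreted glycoprotein Spp1, the factors Thbs1 and Dll4 that restrain sprouting, the hypoxia regulator Hif1a and the nitric oxide synthase Nos2. The reads of each gene were counted in 12 RNA-seq libraries.

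New vessels sprout when endothelial cells meet VEGF-A, which binds the receptor VEGFR2 on their surface. PDGF-B then recruits the pericytes that coat the new vessel, while placental growth factor and VEGF-B bind VEGFR1. Brakes act on this process as well: thrombospondin, the product of Thbs1, blocks endothelial growth through CD36, and DLL4 signals through Notch to limit the number of tip cells. Low oxygen stabilises the HIF-1α protein, a transcription factor that switches on Vegfa and other genes. Macrophages in tumors secrete several of these factors and, after inflammatory stimulation in the mouse, make nitric oxide through Nos2.

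The 4 groups held 3 libraries each: MM-MΦs of BMI1-KO and of wt mice, and MΦs of BMI1-KO and of wt mice. BMI1-KO cells came from BMI1fl/fl Mx1-Cre mice and wt cells from BMI1fl/fl mice, all C57BL/6, and both genotypes carried the floxed allele and were given 5 doses of poly I:C (15 mg/kg) at 6 to 8 weeks of age. Mx1-Cre is switched on by interferon, which poly I:C evokes, and acts in many cell types besides macrophages. Marrow was taken 4 weeks after the last dose, and its adherent cells were grown in 5 ng/mL M-CSF for 7 days to give MΦs. MM-MΦs were MΦs kept for a further 48 h with 5TGM1 cells, a mouse myeloma line. RNA was taken from CD11b+ F4/80+ cells sorted from each culture. The labels do not say if each replicate was a different mouse, so p-values measure the spread between these libraries, which may in part be technical.

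The libraries held 9662279 to 11142768 counts. Bmi1 had 251 to 364 counts in the 6 wt libraries and was listed at 0 in the 6 BMI1-KO libraries. The library totals implied by the deposited FPKM values exceeded the summed counts by 512 to 734 in BMI1-KO libraries and by none in wt libraries, so counts of at least 1 feature were missing from the BMI1-KO tables and the zeros of Bmi1 were not used to check the labels. All 8 macrophage markers were detected in every group, and their summed level was 12845 to 19646 CPM (counts scaled to the size of the library). The replicate numbers lay far apart: on the first principal component, with 36.4% of the variance, the replicate 3 libraries lay between 35.3 and 58.8 and the replicate 1 libraries between −55.2 and −31.6. Genotype separated on the second component, with 16.5% of the variance. Summed proliferation markers were 104 to 602 CPM in BMI1-KO libraries, against 1817 and 1882 CPM in the wt libraries of replicate 3 and 235 to 474 CPM in the other wt libraries. Dendritic cell markers summed to 14.1 to 65.2 CPM in BMI1-KO libraries, against 98.6 to 622 CPM in wt libraries. Most of this sum was 1 gene, Itgax, at 12.8 to 61.3 CPM in BMI1-KO libraries and 89.7 to 591 CPM in wt libraries. H2-Ab1, the other tested marker, was lower as well, at 0.63 to 7.43 CPM in BMI1-KO libraries and 8.18 to 30.5 CPM in wt libraries. Neither gene passed the edgeR threshold in either genotype comparison. Flt3, Zbtb46, Ccr7 and Cd209a were too low to test, so the sum rests on 2 genes and does not by itself show a difference in dendritic cells. The part of these markers in the results was not tested. In bulk samples such as these, fewer cells of a type and less RNA per cell cannot be told apart.

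The members are scattered over the genome (GRCm38, GENCODE M21): Vegfa on chromosome 17 (46016993 to 46032369, minus strand), Vegfb on 19 (6982473 to 6987651, minus), Pgf and Hif1a far apart on 12 (85166635 to 85177790, minus, and 73901375 to 73947530, plus), Pdgfb on 15 (79995874 to 80014977, minus), Fgf2 on 3 (37348346 to 37410108, plus), Spp1 on 5 (104435118 to 104441050, plus) and Nos2 on 11 (78920787 to 78960254, plus). Thbs1 (118111876 to 118127133, plus) and Dll4 (119325784 to 119335962, plus) both lie on chromosome 2. All are protein-coding genes, and their values sum reads over all exons.

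Sequences before the start sites of 4 members are shown because the levels of Spp1 and Hif1a moved together from library to library, those of Vegfa and Hif1a moved in opposite directions, and Dll4 had the largest fold change of the members in MM-MΦs. They are the 250 bases before the RefSeq start (build GRCm38.p6), and capitals mark each match to a motif searched on both strands: the core of the hypoxia response element (ACGTG or GCGTG), the RBPJ motif through which Notch acts (TGGGAA) and the AP-1 motif (TGANTCA). Vegfa is at chr17:46032378-46032627 (minus strand), Spp1 at chr5:104434861-104435110 (plus strand), Hif1a at chr12:73907617-73907866 (plus strand) and Dll4 at chr2:119325534-119325783 (plus strand).
Vegfa: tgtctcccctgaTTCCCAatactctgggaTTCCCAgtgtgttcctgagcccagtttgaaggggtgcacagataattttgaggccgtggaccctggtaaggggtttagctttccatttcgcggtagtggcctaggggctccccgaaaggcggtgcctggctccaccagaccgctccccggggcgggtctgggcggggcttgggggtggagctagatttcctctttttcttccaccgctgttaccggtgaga
Spp1: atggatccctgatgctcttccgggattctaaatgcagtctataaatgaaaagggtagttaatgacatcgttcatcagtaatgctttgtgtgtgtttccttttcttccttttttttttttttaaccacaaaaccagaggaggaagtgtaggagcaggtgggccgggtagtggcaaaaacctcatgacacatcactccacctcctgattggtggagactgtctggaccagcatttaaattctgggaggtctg
Hif1a: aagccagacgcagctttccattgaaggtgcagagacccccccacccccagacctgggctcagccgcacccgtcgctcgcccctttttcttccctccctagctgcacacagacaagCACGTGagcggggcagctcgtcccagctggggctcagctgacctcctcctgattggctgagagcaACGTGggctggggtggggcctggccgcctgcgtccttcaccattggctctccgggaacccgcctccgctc
Dll4: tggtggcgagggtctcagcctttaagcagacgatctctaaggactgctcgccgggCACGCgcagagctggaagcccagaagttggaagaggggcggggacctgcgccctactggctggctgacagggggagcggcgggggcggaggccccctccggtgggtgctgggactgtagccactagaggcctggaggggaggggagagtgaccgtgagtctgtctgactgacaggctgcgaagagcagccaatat

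The hypoxia core matched 3 times in the Hif1a window, where a palindrome gives 2 of the matches, and 1 time in the Dll4 window, and 38.6% of 32851 mouse promoter windows of this length hold at least 1 match. The RBPJ motif matched 2 times in the Vegfa window and is in 21.6% of windows. AP-1, which is in 6.75% of windows, had 0 matches in these 4, and the Spp1 window held 0 matches to any of the 3 motifs. RefSeq also gives Vegfa a start inside the gene, whose window (chr17:46025164-46025413) overlaps exons of Vegfa, is not printed here and held 2 matches to the hypoxia core and 2 to the RBPJ motif. A match describes letters and not binding. RefSeq gave a promoter for 7 of the 10 members, and Pdgfb, Thbs1 and Nos2 had none. The Hif1a window lies inside the longer gene span that GENCODE gives.

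Per unit of gene length, Spp1 was far above the other members in every group. In the authors' FPKM (fragments scaled to gene length and library size), Spp1 averaged 1558 ± 629.7 in BMI1-KO MM-MΦs against 946 ± 95.8 in wt MM-MΦs, while the averages of MΦs were 1233 ± 521 in BMI1-KO and 757 ± 125 in wt (SD, n = 3 each), and its lowest library was above the highest library of the next gene in each group. Vegfa, Thbs1, Pdgfb and Hif1a formed a middle tier with group means of 16.3 to 37.4 FPKM, and neighbours in that order overlapped in every group. Thbs1 ranked first in this tier in both BMI1-KO groups and Vegfa in both wt groups, but neither differed from its neighbour beyond the spread. Vegfb came next, at 7.12 ± 1.52 FPKM in BMI1-KO MM-MΦs against 8.17 ± 2.34 in wt MM-MΦs, with averages in MΦs of 7.33 ± 3.43 in BMI1-KO and 7.84 ± 1.94 in wt (SD, n = 3 each). It did not overlap its neighbours in the order, but the replicate 3 values of Thbs1 in BMI1-KO cells (8.63 and 8.31 FPKM) lay within its range. Dll4, Fgf2 and Pgf came last among the detected genes, with group means of 0.02 to 0.59 FPKM. Nos2 was listed at 0 in all 12 libraries.

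**Figure D1:**
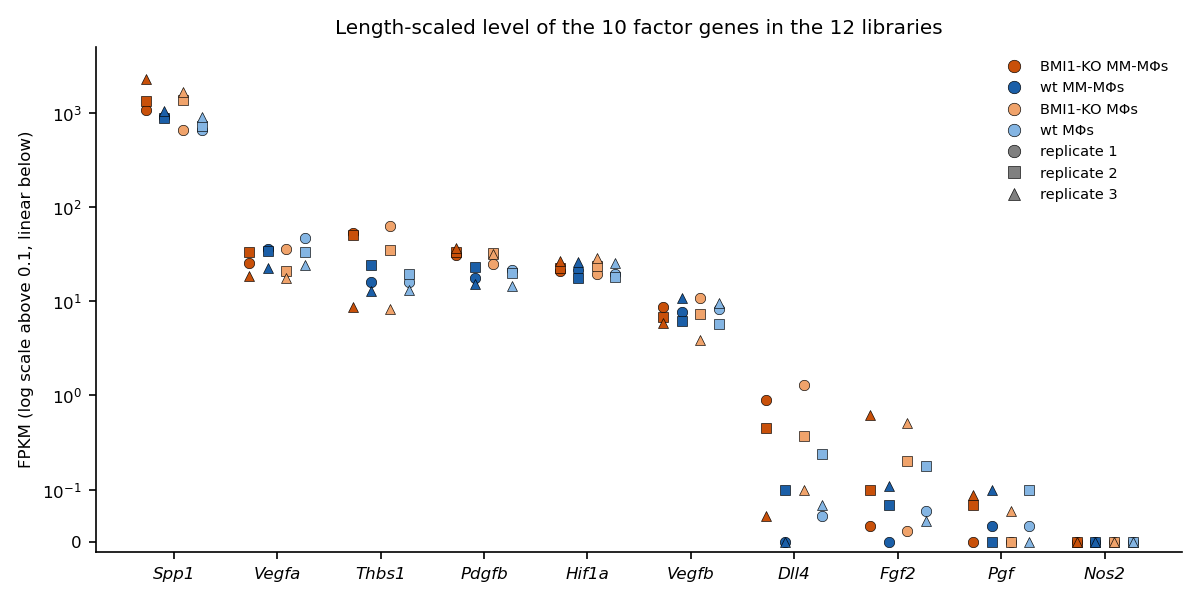
FPKM of the 10 factor genes (logarithmic axis above 0.1, linear below) in each of the 12 libraries, with colour for the group and marker shape for the replicate number. Spp1 stands alone at the top at 653 to 2272 FPKM, 4 genes share the middle tier, and Nos2 lies at 0.

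Of the 10 members, 8 had enough counts for the test across genes, and Pgf and Nos2 did not. The question of the first comparison was what loss of BMI1 did in MM-MΦs. None of the 8 genes passed the threshold in BMI1-KO MM-MΦs set beside wt MM-MΦs (edgeR quasi-likelihood test, Benjamini-Hochberg adjusted p of at most 0.05 over 14197 genes), where 0.0634% of all genes tested did. DESeq2 called 0 of them as well. At an unadjusted p under 0.05 there were 3, Pdgfb, Spp1 and Dll4, against 5.02% of all genes. The log2 fold change was above 0 for 6 of the 8, with a median of 0.77, beside −0.014 over all genes tested.

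Pdgfb, which encodes the ligand that draws pericytes to vessels, had 133, 138 and 152 CPM in BMI1-KO MM-MΦs, against 79.0, 99.4 and 59.2 CPM in wt MM-MΦs (replicates 1, 2 and 3 in this order here and below, scaled by TMM). All 3 BMI1-KO libraries were above all 3 wt libraries. Its log2 fold change was 0.83 (SE 0.22, 95% interval 0.35 to 1.31), with an edgeR adjusted p of 0.430 and a DESeq2 adjusted p of 0.0979. It was 0.62 without replicate 3 in all groups, and it passed the threshold in 1 of the 13 alternatives. In MΦs, Pdgfb had 103, 137 and 127 CPM in BMI1-KO libraries, against 93.3, 84.5 and 55.5 CPM in wt libraries, again without overlap. Here the log2 fold change was 0.66 (SE 0.22, 95% interval 0.18 to 1.13, edgeR adjusted p 0.651), and it was 0.44 without replicate 3 in all groups. Groups did not overlap upward for 4.4% of all genes tested in MM-MΦs and for 5.17% in MΦs.

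Vegfa encodes the main ligand of vessel growth and overlaps no exon of another gene. It had 114, 141 and 78.9 CPM in BMI1-KO MM-MΦs, against 165, 151 and 90.8 CPM in wt MM-MΦs. In MΦs it had 154, 91.3 and 73.2 CPM in BMI1-KO libraries, against 211, 145 and 95.3 CPM in wt libraries. The groups overlapped in both. For Vegfa the log2 fold change was −0.28 in MM-MΦs (SE 0.36, 95% interval −1.06 to 0.50, edgeR adjusted p 0.999) and −0.50 in MΦs (SE 0.36, 95% interval −1.28 to 0.28, edgeR adjusted p 0.973). The replicate 3 library was the lowest of its group in all 4 groups, and without it the log2 fold change was −0.29 in MM-MΦs and −0.52 in MΦs.

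Vegfb, whose product is a VEGFR1 ligand linked to coronary vessels, had 14.7, 10.7 and 9.29 CPM in BMI1-KO MM-MΦs, against 13.2, 10.1 and 16.1 CPM in wt MM-MΦs. The groups overlapped, and the log2 fold change was −0.19 (SE 0.35, 95% interval −0.96 to 0.58). In MΦs it had 17.4, 11.8 and 6.07 CPM in BMI1-KO libraries, against 13.9, 9.28 and 14.1 CPM in wt libraries, and the log2 fold change was −0.082 (SE 0.35, 95% interval −0.85 to 0.69). Leaving out replicate 3 in all groups turned both values, to 0.14 in MM-MΦs and 0.34 in MΦs.

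Fgf2 encodes a heparin-binding growth factor for endothelial cells and fibroblasts, and was nearly silent. It had 2, 7 and 47 counts in BMI1-KO MM-MΦs, against 0, 5 and 8 counts in wt MM-MΦs. The matching counts in MΦs were 1, 14 and 37 in BMI1-KO libraries and 4, 12 and 3 in wt libraries. Replicate 3 was by far the highest library in both BMI1-KO groups. Fgf2 had a log2 fold change of 2.04 in MM-MΦs (SE 1.28, 95% interval −0.77 to 4.85). It was 0.16 without the replicate 3 library of BMI1-KO MM-MΦs, and 0.83 without replicate 3 in all groups. In MΦs it was 1.36 (SE 1.23) and, without replicate 3 in all groups, −0.16. Nudt6, an antisense gene, shares 640 of the 6782 exonic bases of Fgf2 (9.44%), and it is not stated if the counting used strand. Gm43439, a transcript on the same strand, shares 255 of these 6782 bases. Pgf, the placental growth factor gene, had at most 3 counts in any library, so no difference was detectable at this depth.

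Spp1 encodes osteopontin, a matrix glycoprotein of macrophages that binds αv integrins and CD44. It had 1850, 2152 and 3727 CPM in BMI1-KO MM-MΦs, against 1584, 1499 and 1628 CPM in wt MM-MΦs. The BMI1-KO libraries were all above the wt libraries, and the spread among them was far wider (SD 1008 CPM, against 65.3 CPM in wt). The log2 fold change was 0.71 (SE 0.32, 95% interval 0.0058 to 1.42, edgeR adjusted p 0.992), and it was 0.39 without replicate 3 in all groups. Spp1 had 1088, 2274 and 2654 CPM in BMI1-KO MΦs, against 1131, 1201 and 1357 CPM in wt MΦs. There the groups overlapped through replicate 1, and the log2 fold change was 0.71 (SE 0.32, 95% interval −0.0032 to 1.41, edgeR adjusted p 0.870), or 0.53 without replicate 3 in all groups. Markers of osteoclasts, which also make osteopontin, summed to 33.4 to 245 CPM in BMI1-KO MM-MΦs, against 211 to 1059 CPM in wt MM-MΦs, with Calcr at 0 in both. Most of this sum was Atp6v0d2 (17.15 to 211 against 160 to 904 CPM) and Acp5 (9.47 to 26.2 against 39.9 to 133 CPM). Ctsk, Dcstamp and Ocstamp overlapped between the genotypes. The part of osteoclast RNA in the values of Spp1 was not tested. Gm42793, a transcript annotated on the same strand, shares 309 of the 1648 exonic bases of Spp1 (18.8%).

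**Figure D2:**
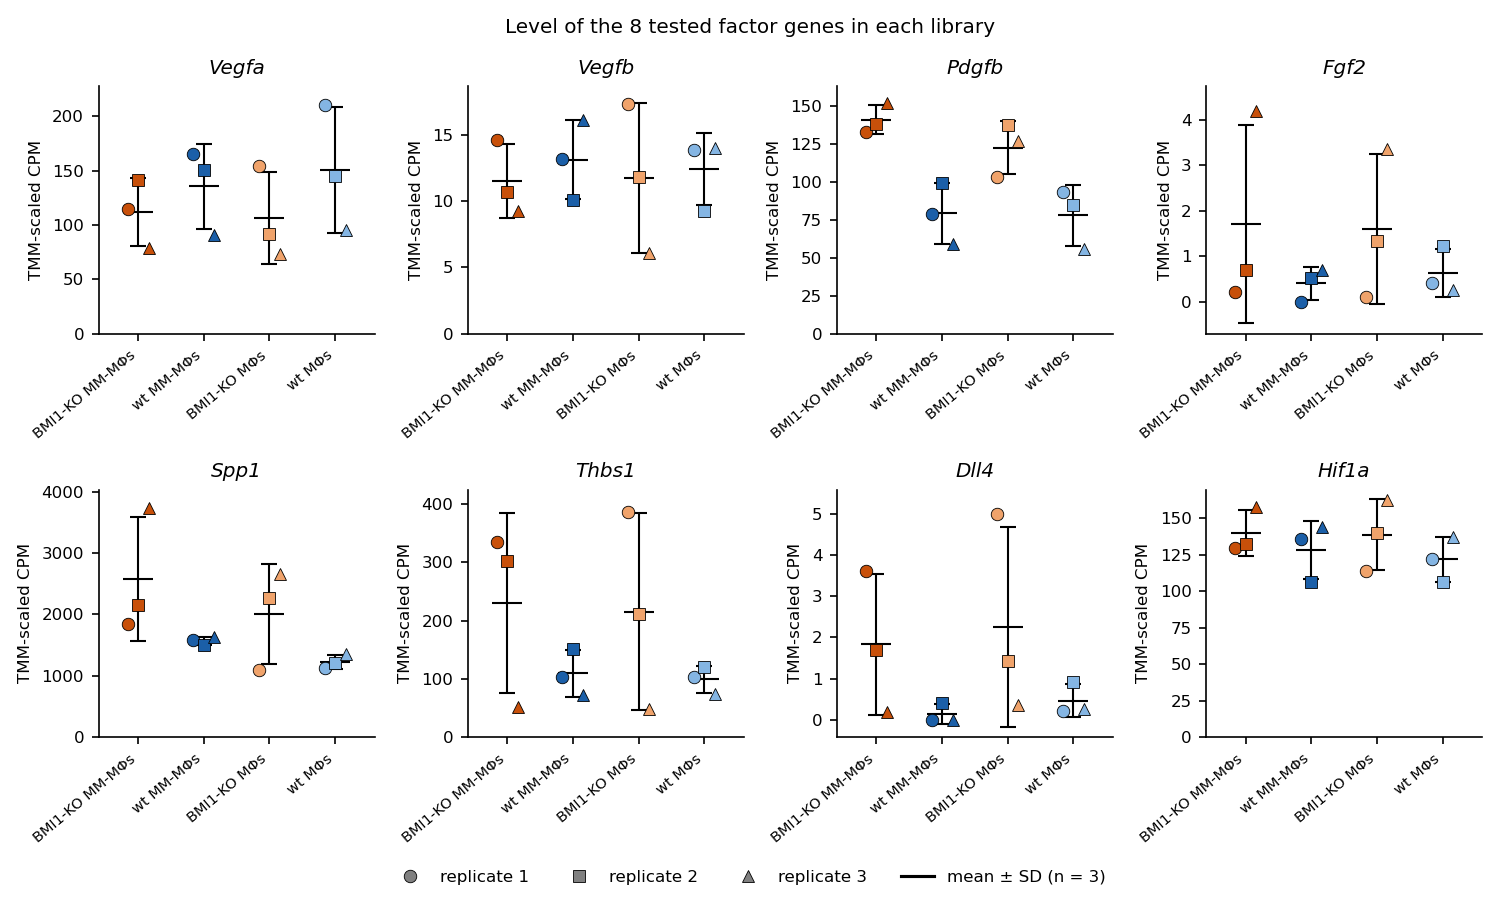
TMM-scaled CPM of the 8 tested genes in each library by group, with marker shape for the replicate number and bars for the mean and SD of 3 libraries. Pdgfb separates the BMI1-KO groups from the wt groups (103 to 152 against 55.5 to 99.4 CPM), while Thbs1 and Dll4 are high in BMI1-KO replicates 1 and 2 and low in replicate 3.

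The factors that restrain vessel growth spread widely among BMI1-KO libraries. Thbs1 had 336, 302 and 52.2 CPM in BMI1-KO MM-MΦs, against 104, 152 and 72.5 CPM in wt MM-MΦs. In MΦs it had 386, 212 and 48.7 CPM in BMI1-KO libraries, against 103, 120.4 and 73.6 CPM in wt libraries. Replicates 1 and 2 of BMI1-KO were above every wt library and replicate 3 was below every wt library, in both cultures. Thbs1 had a log2 fold change of 1.08 in MM-MΦs (SE 0.70, 95% interval −0.47 to 2.62, edgeR adjusted p 0.999) and of 1.12 in MΦs (SE 0.71, edgeR adjusted p 0.972). Without replicate 3 in all groups it was 1.34 in MM-MΦs, with an edgeR adjusted p of 0.248, and in MΦs it was 1.43. Single libraries moved it as far downward: it ran from 0.70 (without BMI1-KO replicate 1) to 1.56 (without BMI1-KO replicate 3) over the alternatives in MM-MΦs, and from 0.38 to 1.59 in MΦs, where the same replicates gave the ends.

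Dll4, the Notch ligand that limits tip cells, followed a similar pattern at very low counts. It had 34, 17 and 2 counts in BMI1-KO MM-MΦs, against 0, 4 and 0 counts in wt MM-MΦs. In MΦs it had 48, 15 and 4 counts in BMI1-KO libraries, against 2, 9 and 3 counts in wt libraries. The groups overlapped through replicate 3 in both cultures. The log2 fold change was 3.67 in MM-MΦs (SE 1.43, 95% interval 0.55 to 6.80, edgeR adjusted p 0.844), and 2.28 in MΦs (SE 1.21, edgeR adjusted p 0.943). It ran from 2.72 (without BMI1-KO replicate 1) to 7.26 (without wt replicate 2) over the alternatives in MM-MΦs, and from 0.95 to 3.22 in MΦs, where the same libraries gave the ends. The value of 7.26 depends on the prior count, since both wt MM-MΦ libraries left had 0 counts. Without replicate 3 in all groups the values were 3.63 and 2.50. DLL4 is best known from endothelial cells, and the endothelial markers summed to 30.8 to 90.5 CPM in BMI1-KO MM-MΦs, against 32.7 to 99.996 CPM in wt MM-MΦs. Single markers differed in direction: of 4 tested, 3 had a log2 fold change above 0 and 1 below. Vwf was at 6.16 to 13.7 against 15.0 to 71.2 CPM, and Pecam1 at 16.4 to 23.4 against 6.22 to 18.8 CPM. Kdr had 53.0, 26.2 and 4.82 against 45.5, 8.58 and 9.02 CPM. Cldn5 was at 0 in all 4 groups, Tek and Emcn in 3 of them. The part of endothelial RNA in the values of Dll4 was not tested. On the opposite strand, Gm14207 shares 214 of the 3852 exonic bases of Dll4, and Gm29233 shares 208 of the 6073 of Thbs1.

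Hif1a spread little between libraries. It had 129.5, 132 and 158 CPM in BMI1-KO MM-MΦs, against 135.5, 106 and 144 CPM in wt MM-MΦs. In MΦs it had 114, 139.5 and 163 CPM in BMI1-KO libraries, against 122, 106.5 and 137 CPM in wt libraries. The groups overlapped in both. The log2 fold change was 0.12 in MM-MΦs (SE 0.17, 95% interval −0.24 to 0.49) and 0.19 in MΦs (SE 0.17, 95% interval −0.18 to 0.55), so that a difference of 1 log2 unit lies outside both intervals. Without replicate 3 in all groups the values were 0.13 and 0.16. HIF-1α is controlled mainly through the stability of the protein, which RNA does not measure. Gm15283, on the opposite strand, shares 330 of the 5896 exonic bases of Hif1a, and Gm49321, a protein-coding gene on the same strand, shares 148. Nos2, the inducible nitric oxide synthase gene, had 0 counts in all 12 libraries, where 3 counts would be 0.31 CPM in the shallowest library. The 6 wt libraries lacked no counts by the FPKM totals, while the 6 BMI1-KO libraries did.

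BMI1-KO MΦs against wt MΦs gave a similar picture for the set. Again 0 of the 8 genes passed the edgeR threshold and 0 passed with DESeq2, while 0.0493% of all genes tested passed with edgeR. Pdgfb alone had an unadjusted p under 0.05, and 5.77% of all genes did. The median log2 fold change of the 8 was 0.68, beside −0.010 over all genes tested, and 6 were above 0. The 2 genotype comparisons share no library, but within a genotype same-numbered libraries of both cultures deviated together, so that the comparisons are not independent.

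**Figure D3:**
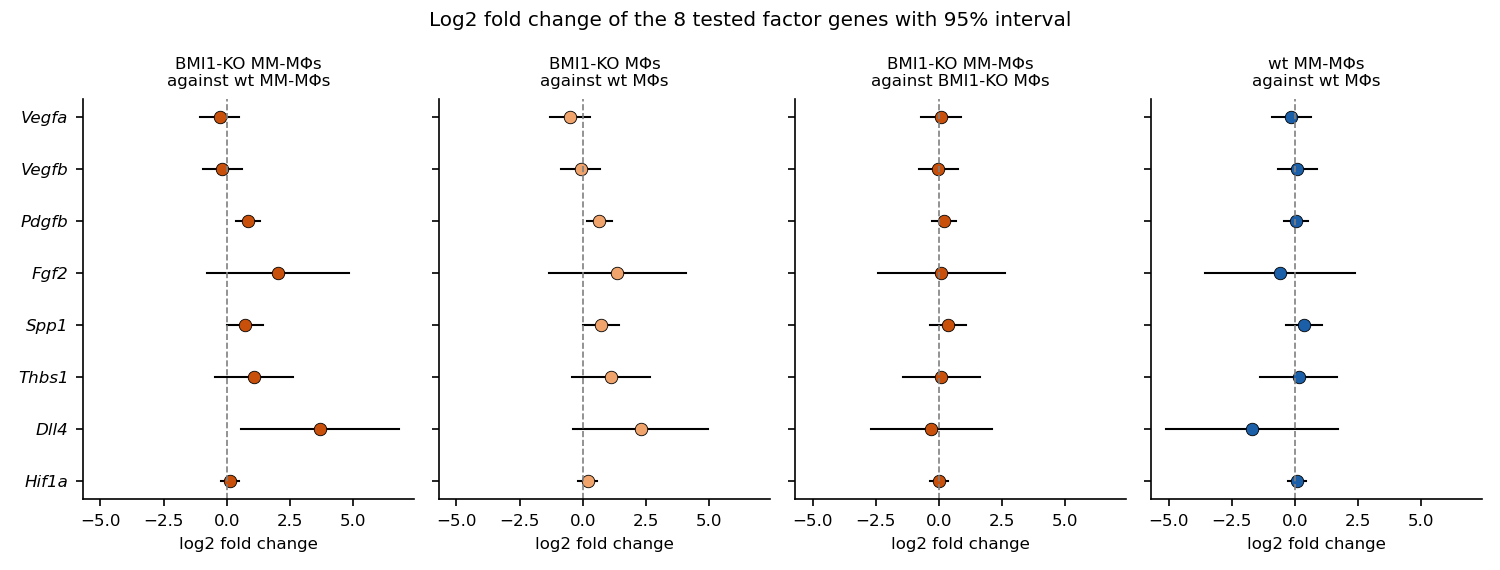
Log2 fold change of the 8 tested genes (points) with 95% intervals (lines) in 4 comparisons, from the edgeR fit of all 12 libraries. In the co-culture comparisons every interval includes 0, and these intervals leave out the pairing of the cultures by replicate number. Those of Pdgfb, Spp1 and Dll4 exclude 0 in BMI1-KO MM-MΦs set beside wt MM-MΦs, and that of Pdgfb does in BMI1-KO MΦs against wt MΦs. The intervals are not adjusted for the number of genes, and none of these genes passed the adjusted threshold in this fit.

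Co-culture with myeloma cells was asked of each genotype in turn. In BMI1-KO MM-MΦs against BMI1-KO MΦs, 0 of the 8 genes passed with edgeR or DESeq2 and 0 had an unadjusted p under 0.05, while 0.19% of all genes tested passed with edgeR and 2.94% had an unadjusted p under 0.05. In wt MM-MΦs against wt MΦs the counts were again 0 and 0, with 0.0916% of all genes tested past the edgeR threshold and 1.99% at an unadjusted p under 0.05. With the replicate number as a block, which the data allow within a genotype, 308 genes passed in BMI1-KO and 156 in wt, in place of 27 and 13, and 0 of the 8 were among them. Igkc, an immunoglobulin light chain gene of plasma and myeloma cells, was 5.60 log2 units higher in BMI1-KO MM-MΦs than in BMI1-KO MΦs (edgeR adjusted p 0.0466). In wt it had 42.2, 137 and 72.8 CPM in MM-MΦs, against 1.22, 16.01 and 2.64 CPM in MΦs, a log2 fold change of 3.67 with an edgeR adjusted p of 0.295, or of 2.0e-09 with the block. Ighg2b, an immunoglobulin heavy chain gene, was 6.36 log2 units above BMI1-KO MΦs in BMI1-KO MM-MΦs and 4.11 above wt MΦs in wt MM-MΦs, and passed with the block in both (edgeR adjusted p 5.7e-08 and 4.9e-07). The summed plasma and myeloma cell markers were 367 to 604 CPM in BMI1-KO MM-MΦs and 148 to 429 CPM in BMI1-KO MΦs, and 395 to 878 CPM in wt MM-MΦs and 195 to 606 CPM in wt MΦs. In MΦs, grown without 5TGM1 cells, most of the sum was Slamf7, Prdm1 and Sdc1 (306, 209 and 83.9 CPM in wt MΦs replicate 1). The sum is therefore not specific to myeloma cells. Pou2af1, a further marker of the list, had 7 to 37 counts in the MM-MΦ libraries and at most 1 in the MΦ libraries. With the block, 4 of the 7 tested markers passed upward in BMI1-KO and 3 in wt. Jchain, Mzb1 and Tnfrsf17 were too low to test. The part of myeloma cell RNA in the co-culture values of the members was not tested.

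Vegfa differed by 0.072 log2 units between BMI1-KO MM-MΦs and BMI1-KO MΦs (SE 0.36, 95% interval −0.71 to 0.85) and by −0.15 between wt MM-MΦs and wt MΦs (SE 0.35, 95% interval −0.93 to 0.63). A doubling of Vegfa, 1 log2 unit, lies outside both intervals. All intervals in this paragraph leave out the pairing of the cultures by replicate number. Pdgfb differed by 0.20 in BMI1-KO (95% interval −0.27 to 0.68) and by 0.026 in wt (95% interval −0.45 to 0.50). Hif1a differed by 0.012 in BMI1-KO (95% interval −0.35 to 0.38) and by 0.076 in wt (95% interval −0.29 to 0.44). Spp1 was higher in every wt MM-MΦ library than in any wt MΦ library, as was so for 3.04% of all genes tested. Its log2 fold change was 0.36 in BMI1-KO (SE 0.32, 95% interval −0.34 to 1.07) and 0.35 in wt (SE 0.32, 95% interval −0.35 to 1.06). With the block, which uses that pairing, Spp1 was 0.39 in BMI1-KO (SE 0.11, edgeR adjusted p 0.0764) and 0.36 in wt (SE 0.11, edgeR adjusted p 0.212). Thbs1 and Vegfb lay between −0.024 and 0.14, and the intervals of Fgf2 and Dll4 spanned more than 4 log2 units.

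The interaction, which asks if co-culture acted differently in BMI1-KO than in wt, passed for 0 of the 8 genes with edgeR and with DESeq2 and had 0 genes at an unadjusted p under 0.05. For all genes tested 0% passed and 0.909% had an unadjusted p under 0.05. It was 0.22 for Vegfa (95% interval −0.88 to 1.32), 0.18 for Pdgfb (95% interval −0.50 to 0.85) and 0.0091 for Spp1 (95% interval −0.99 to 1.01). These intervals leave out the pairing of the cultures by replicate number. With the block the interaction was 0.23 for Vegfa (SE 0.19), 0.18 for Pdgfb (SE 0.14) and 0.037 for Spp1 (SE 0.16), so that 1 log2 unit, which lies within the unpaired intervals of Vegfa and Spp1, was more than 4 SE from the blocked values.

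The variation of each gene was divided among its sources to see what the libraries differed by. The sum of squares of log2 CPM over the 12 libraries was split into genotype, co-culture, their interaction, replicate number within a genotype, and the rest. Genotype held 69.7% for Pdgfb, 40.6% for Dll4 and 37.6% for Spp1, and 5.08% to 17.7% for the other 5, with a median over all genes tested of 6.45%. Co-culture held 13.3% for Spp1, 4.78% for Dll4 and 0.011% to 1.68% for the others, with a median over all genes of 2.96%. The replicate number held 84.7% for Thbs1, 82.0% for Vegfb, 75.6% for Hif1a, 72.7% for Fgf2 and 68.1% for Vegfa, with a median over all genes of 55.8%. The replicate number takes 4 of the 11 degrees of freedom and genotype and co-culture 1 each. These shares are a description and carry no test.

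**Figure D4:**
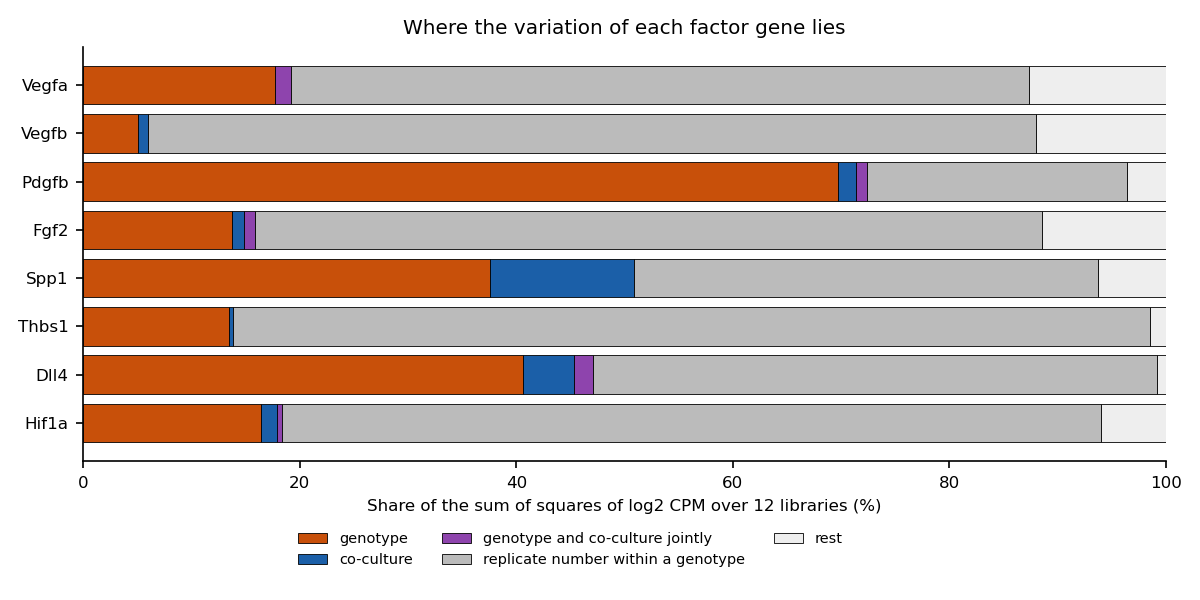
Share of the sum of squares of log2 CPM over 12 libraries (%) for each of the 8 tested genes, as stacked bars by source. Genotype is the main source for Pdgfb at 69.7%, and the replicate number within a genotype for Thbs1 at 84.7% and Vegfb at 82.0%.

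Levels of several members varied together across the 12 libraries, which share their replicate numbers within a genotype. Thbs1 and Dll4, both brakes on sprouting, had a Pearson r of 0.85 over the 12 libraries and 0.93 after removal of the group means. Spp1 and Hif1a had 0.77 and 0.76 by the same measures. Vegfa and Hif1a ran against each other, at −0.77 and −0.72, and Spp1 and Thbs1 did so mainly within groups, at −0.32 and −0.88. The 3 genes whose log2 CPM followed Vegfa most closely among 10070 genes with a mean of at least 5 CPM were Il18bp (r = 0.95), 2900089D17Rik (r = 0.94) and Stx4a (r = 0.94). These correlations describe 12 libraries that differ by replicate number, and nothing follows from them about shared control.

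The 5 lists of further pathway genes, 137 entries in all of which 99 were tested, were read from the same fit. In BMI1-KO MM-MΦs set beside wt MM-MΦs 0 of the 99 passed the edgeR threshold, 9 had an unadjusted p under 0.05, beside 5.02% of all genes tested, and 56 were above 0 and 43 below. Among 23 tested vessel ligands and proteases the median log2 fold change was 0.037. Mmp9, a gelatinase that frees VEGF from matrix, had the largest value of those named, 3.10 (SE 0.62, edgeR adjusted p 0.183), and 2.83 in MΦs. It had 14.4, 26.0 and 33.0 CPM in BMI1-KO MM-MΦs, against 1.59, 4.13 and 2.80 CPM in wt MM-MΦs. All 3 BMI1-KO libraries were above all 3 wt libraries, as was so for 4.4% of all genes tested. Mmp9 was named for its small p in this comparison, so the separation adds no support. Mmp9 is also a granule gene of neutrophils, and the 8 neutrophil markers summed to 16.7, 154 and 15.99 CPM in BMI1-KO MM-MΦs, against 6.68, 19.6 and 14.4 CPM in wt MM-MΦs, with Ly6g at 0 in both. In MΦs they summed to 8.43 to 80.2 CPM in BMI1-KO libraries, against 5.99 to 16.3 CPM in wt libraries. The 4 tested neutrophil markers were all above 0 in both genotype comparisons, with a median log2 fold change of 2.27 in MM-MΦs and 2.12 in MΦs. None passed the edgeR threshold, and 3 had an unadjusted p under 0.05 in MM-MΦs and 0 in MΦs. Among BMI1-KO MM-MΦs the marker sum was highest in replicate 2 and Mmp9 in replicate 3, and the part of neutrophil RNA in the values of Mmp9 was not tested. Mmp12, the macrophage elastase, had −1.99 (SE 0.52, edgeR adjusted p 0.430), and Jag1, a Notch ligand that opposes DLL4 in sprouting, had 1.22 (SE 0.57, edgeR adjusted p 0.999). Jag1 had 0.82 without replicate 3 in all groups. Its BMI1-KO MM-MΦ library of replicate 1, at 25.9 CPM, was below the wt MM-MΦ libraries, at 29.9 to 46.7 CPM. Among 20 tested receptors the median was 0.058. Itgav, the αv integrin chain that binds osteopontin, had 0.61 (SE 0.21, edgeR adjusted p 0.723), while Fgfr1 and Met, receptors for FGF2 and for hepatocyte growth factor, had −1.65 and −0.97.

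Among 20 tested anti-angiogenic genes the median was −0.041, with 9 above 0 and 11 below. Col18a1, whose collagen is cut to give endostatin, had 2.84 (SE 0.84, edgeR adjusted p 0.535), and 1.69 without replicate 3 in all groups. Sema4a had −0.88 and Spry2, an inhibitor of receptor tyrosine kinase signals, 0.48. For 26 tested genes of the hypoxia response the median was 0.093. That list mixes genes downstream of HIF-1α with regulators of the pathway, such as Vhl and Egln1. The values named were 0.58 for Bnip3, 0.72 for Ddit4 and −1.04 for Ndrg1. For 10 tested genes of nitric oxide and arginine handling the median was −0.065. Arg1, the arginase that competes with Nos2 for arginine, had −2.23 (SE 1.002, edgeR adjusted p 0.992), Arg2 had 0.76 and the arginine transporter Slc7a2 had −0.93. Over the lists 0 of the 99 genes passed in each of the other 4 comparisons as well, with 12 at an unadjusted p under 0.05 in BMI1-KO MΦs against wt MΦs, beside 5.77% of all genes tested. In the 2 co-culture comparisons and the interaction 0 of the 99 had an unadjusted p under 0.05, beside 2.94% of all genes tested in BMI1-KO, 1.99% in wt and 0.909% for the interaction.

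With the replicate number as a block, which pairs the cultures within a genotype, 4 of the 99 passed for co-culture in BMI1-KO and 2 in wt, where 308 and 156 of all 14197 genes did. Cd36, the receptor through which thrombospondin blocks endothelial growth, was lower in BMI1-KO MM-MΦs than in BMI1-KO MΦs (−0.49, SE 0.078, edgeR adjusted p 0.00060). Mmp12 was lower there as well (−0.43, SE 0.11, edgeR adjusted p 0.0483). Tgfbi, a matrix protein induced by TGF-β, was higher with co-culture in BMI1-KO (0.65, SE 0.12, edgeR adjusted p 0.0031) and in wt (0.49, SE 0.12, edgeR adjusted p 0.0499). The chemokine Cxcl10, which restrains endothelial growth through CXCR3, passed in BMI1-KO (0.85, SE 0.22, edgeR adjusted p 0.0472), and the chemokine Cxcl2 in wt (0.44, SE 0.11, edgeR adjusted p 0.0443). Cd36, Cxcl10 and Cxcl2 did not pass in the other genotype, where all replicate pairs moved the same way. In wt, Cxcl10 had 20.5, 8.78 and 6.83 CPM in MM-MΦs, against 11.7, 7.24 and 3.58 CPM in MΦs. Cd36 had 1871, 2855 and 1824 CPM in wt MM-MΦs, against 2400, 3017 and 1980 CPM in wt MΦs. In BMI1-KO, Cxcl2 had 892, 646 and 547 CPM in MM-MΦs, against 581, 613 and 433 CPM in MΦs. Mmp12 differed by 0.0068 in wt (SE 0.11). These genes were named after their values were seen, and the interaction passed for 0 of the 99.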

How the data were processed

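The authors deposited raw counts per gene, and the files per library add FPKM values that the authors computed from them. By the submitters' notes, reads were demultiplexed with bcl2fastq 2.17.1.14 and trimmed with cutadapt 1.9.1. They were aligned with HISAT2 2.0.1 to GRCm38 (mm10) and counted with HTSeq 0.6.1. DESeq2 was named for normalization. The sources used here give no strand setting, annotation release or version of DESeq2. Without strand, reads of overlapping antisense genes cannot be told apart.

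The counts were fitted in R 4.3.3 with edgeR 4.0.16 (TMM scaling, filterByExpr with a minimum count of 10 and a minimum total of 15, quasi-likelihood test), with 1 mean for each group over all 12 libraries. Benjamini-Hochberg adjustment ran over 14197 genes with a threshold of 0.05. Intervals are 95% intervals of the fit, from its SE and degrees of freedom. Alternatives were DESeq2 1.42.0 and those given with the results' dependence on processing. Levels per length are the deposited FPKM values, and positions and overlaps are those of GENCODE M21, which match the deposited starts and ends of all 10 members.

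Replicate numbers are shared by the groups. Deviations from group means of MΦ and MM-MΦ libraries with the same number correlated across genes at 0.64, 0.18 and 0.60 for BMI1-KO and at 0.55, 0.36 and 0.725 for wt, all above 0.1, so that the numbers were taken to pair the cultures within a genotype. No 2 replicates had near-identical counts.

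Named beside the members are, per list, the 3 genes with the smallest p in BMI1-KO MM-MΦs set beside wt MM-MΦs, and the 3 genes most like Vegfa. Igkc and Ighg2b were named after their values were seen. The members and lists were chosen with earlier results of these data known. The floor for 0 counts covers counting error only.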

Additional observations from a re-analysis of the deposited data

How the results depend on the processing

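The count of members past the threshold was 0 in all comparisons with RLE scaling, with no filter on low counts, with a filter at 1 CPM in 3 libraries, with DESeq2, without replicate 3 in all 4 groups and with each library left out in turn. With only the 6 libraries compared it was 0 in the 4 comparisons of 2 groups, and the interaction, which needs all 4 groups, has no such fit. Of 560 refitted values of the 8 genes, 502 kept their direction and their side of the threshold. The counts of all genes past the threshold were less stable. In the order BMI1-KO MM-MΦs set beside wt MM-MΦs, BMI1-KO MΦs against wt MΦs, BMI1-KO MM-MΦs against BMI1-KO MΦs, and wt MM-MΦs against wt MΦs, they were 9, 7, 27 and 13 as reported, 21, 14, 42 and 22 with no filter, 4, 2, 0 and 6 with only the 6 libraries compared, and 79, 68, 85 and 54 with DESeq2. Without replicate 3 in all 4 groups 1 gene passed in each co-culture comparison. With 1 library left out the counts ran from 3 to 10, 3 to 6, 4 to 24 and 0 to 3.

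With the replicate number as a block, 181, 206, 308 and 156 genes passed, and 1 for the interaction. Of the members 1 passed, Pdgfb in BMI1-KO MM-MΦs set beside wt MM-MΦs (0.86, SE 0.18, edgeR adjusted p 0.0346), and no other member's call changed. Of the 99 further pathway genes tested, 6 passed in that comparison with the block, namely Mmp9, Col18a1, Mmp12, Sema4a, Ndrg1 and Plxnd1, and 4 in BMI1-KO MΦs against wt MΦs, namely Mmp9, Itgav, Plxnd1 and Sema4a. Between genotypes the numbers are only shared: deviations of same-numbered libraries correlated at 0.50, 0.03 and 0.51 in MM-MΦs and 0.48, −0.03 and 0.50 in MΦs, and 2 of 3 libraries correlated best with their own number. The block also turned the direction of Vegfb (0.050) and Fgf2 (−0.051) for co-culture in BMI1-KO, and of Thbs1 for the interaction (0.028).

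Without replicate 3 in all 4 groups the direction turned for Vegfb in BMI1-KO MM-MΦs set beside wt MM-MΦs (0.14), for Vegfb (0.34) and Fgf2 (−0.16) in BMI1-KO MΦs against wt MΦs, for Fgf2 (−0.64) in co-culture in BMI1-KO, for Pdgfb (−0.00059) in co-culture in wt and for Spp1 (−0.14) in the interaction. Leaving out 1 library turned the direction of no member in BMI1-KO MM-MΦs set beside wt MM-MΦs. For BMI1-KO MΦs against wt MΦs the values ran from −0.49 to 0.23 for Vegfb. For co-culture in BMI1-KO the values ran from −1.27 to 1.04 for Dll4, −1.77 to 1.23 for Fgf2, −0.093 to 0.14 for Hif1a, −0.38 to 0.84 for Thbs1, −0.14 to 0.46 for Vegfa and −0.34 to 0.39 for Vegfb. For co-culture in wt the values ran from −1.24 to 0.32 for Fgf2, −0.013 to 0.20 for Hif1a, −0.17 to 0.20 for Pdgfb, −0.17 to 0.37 for Thbs1, −0.39 to 0.17 for Vegfa and −0.093 to 0.24 for Vegfb. For the interaction the values ran from −1.19 to 1.81 for Fgf2, −0.18 to 0.065 for Hif1a, −0.34 to 0.26 for Spp1, −0.52 to 0.70 for Thbs1, −0.091 to 0.61 for Vegfa and −0.42 to 0.30 for Vegfb. The causes were not tested. At this depth, Pgf, Dll4 and Fgf2 rest on few counts, and Nos2 on none.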
